A study of Danio rerio with 12 samples.

Results

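The genes gapdh (ENSDARG00000043457), ldha (ENSDARG00000101251) and hif1ab (ENSDARG00000034293) were followed in macrophages sorted from zebrafish larvae that had been wounded, treated with a glucocorticoid, or both. They were taken by identifier, as 3 of the 31962 genes in the count files, and they were chosen because they stand for glycolysis, for lactate production and for the hypoxia-inducible transcription factor. In the 12 libraries they received between 1555 and 27846 reads each, so all 3 passed the filter on low counts in every comparison. After amputation gapdh rose 2.85-fold against Control, the only call among these 3 genes with edgeR over all samples of each pair of groups. This call was lost without the pairing of the replicates, without replicate 2 or 3, and with all 12 samples in one fit. Another normalization and a stricter count filter also lost it narrowly, while DESeq2 kept it. All 17 skeletal muscle markers and all 11 epidermis markers were likewise higher in Amp by the fit, where the median log2 fold change of all genes was -0.11. Of the 17 muscle markers 1 was called, against 2.46% of all genes. At an unadjusted p below 0.05 there were 12, all higher, against 18.2% of all genes (edgeR). Their summed level overlapped between Amp and Control, as the gapdh level did. The gene most correlated with gapdh, out of 10613 compared, was a fast muscle troponin gene (r = 0.98). The part of muscle or epidermis cells in the gapdh values was not tested. In amputated, beclomethasone-treated larvae gapdh lay close to the levels of the groups without a wound, and ldha had its highest mean in that group. The ldha levels overlapped those of amputated larvae without the drug. No comparison of amputated, beclomethasone-treated larvae was called for gapdh or ldha with edgeR over all samples of each pair of groups. For hif1ab no comparison passed the test.

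The larvae carried the Tg(mpeg1.4:mCherry-F) transgene, in which the mpeg1 promoter drives a red fluorescent protein in macrophages, and they were 3 days post fertilization (dpf) old. The medium held the synthetic glucocorticoid beclomethasone at 25 µM, or 0.05% DMSO for the vehicle groups, from 2 h before the operation. Their tails were then partially amputated or left intact, and the incubation was continued. The groups were Control (vehicle, intact tail), Amp (vehicle, amputated), Beclo (beclomethasone, intact) and Amp+Beclo (beclomethasone, amputated), with 3 samples per group, each a pool of 100 to 150 embryos. At 4 hours post amputation (hpa) the larvae were dissociated with actinomycin D present in each step, an inhibitor of transcription, and the red cells were sorted. The sort took macrophages of the whole larva, so cells at the wound and cells elsewhere were pooled.

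Glycolysis splits glucose into pyruvate and yields ATP without oxygen. Gapdh, glyceraldehyde phosphate dehydrogenase, is the enzyme of the pathway that reduces NAD+ to NADH, and lactate dehydrogenase, of which ldha encodes the A subunit, turns pyruvate into lactate and returns the NAD+. Hif1ab encodes an alpha subunit of hypoxia-inducible factor 1 (HIF-1), which in mammals switches on most glycolytic genes when oxygen is low or when macrophages are activated by bacterial products. HIF-1 alpha is controlled largely by breakdown of the protein, after hydroxylation by EGLN enzymes, so that its transcript level says little about its activity. In mammals glycolysis is known to be high in pro-inflammatory macrophages. Gapdh is abundant in most cell types, skeletal muscle among them, and is often used as a reference gene.

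The libraries held 9488569 to 18865019 reads on genes. Levels are given as CPM, the counts of a gene scaled to an equal library total after TMM normalization, and a fold change was called when the adjusted p was below 0.05 and the fold above 2. The normalization factors of Amp replicates 2 and 3 were the lowest, at 0.79 and 0.75, and those of the other libraries lay between 0.93 and 1.15. Of 22107 genes tested between Amp and Control, 2.46% were called, 251 higher and 292 lower, and the median log2 fold change of all genes was -0.11. DESeq2 called 528 higher and 288 lower. The summed level of 22 macrophage marker genes, among them the mpeg1 and mfap4 copies, ranged from 6256 to 31567 CPM, and none of these markers was at 0 in any library. Markers of other cells were present as well. The sum over 17 skeletal muscle markers ranged from 11259 to 102594 CPM, over 11 epidermis markers from 7908 to 35145 CPM, over 9 erythrocyte markers from 868 to 5197 CPM and over 8 neutrophil markers from 277 to 773 CPM. The neutrophil list is not specific. It lacked mpx, which was not matched, and held mmp9, which the paper counts among genes of pro-inflammatory macrophages. Lists were matched by name and their sums are not comparable with each other, since no gene lengths were used. Replicate 3 had the lowest macrophage sum of each group, at 6256, 10152, 14206 and 6501 CPM in Control, Amp, Beclo and Amp+Beclo. It had the highest muscle sum in Control, Amp and Amp+Beclo, at 51676, 102594 and 56600 CPM, while in Beclo replicate 2 did (39457 CPM). How far this bears on other values of replicate 3 was not tested.

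In the Control samples gapdh was at 424, 547 and 945 CPM in replicates 1, 2 and 3, with a mean of 638 ± 272 (SD, n = 3). In the Amp samples it was at 697, 3217 and 2273 CPM, with a mean of 2062 ± 1273 (SD, n = 3). Amp replicate 1 lay below Control replicate 3, so the groups overlapped, but within each pair of the same replicate number the Amp sample was the higher, by 1.65-fold, 5.88-fold and 2.41-fold. Of all genes tested, 19.3% were likewise higher in 3 of 3 pairs. The fitted log2 fold change was 1.51 (SE 0.46; adjusted p = 0.0484, quasi-likelihood test of edgeR, Benjamini-Hochberg adjusted), and 1.14% of all genes were called higher in this comparison. In bulk samples such as these, fewer cells that express a gene and less RNA of it per cell cannot be told apart, and neither can more of either. The call was lost without the replicate block (log2 fold change 1.71, adjusted p = 0.853), without replicate 2 (1.05, adjusted p = 0.826) and without replicate 3 (1.66, adjusted p = 0.656), and it was kept without replicate 1 (1.99, adjusted p = 0.0111).

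In the Beclo samples gapdh was at 882, 1064 and 897 CPM, and the mean of 948 ± 101 (SD, n = 3) had the smallest spread of the 4 groups. Control replicate 3 lay within this range. Beclo differed from Control by 0.65 on the log2 scale (SE 0.38; adjusted p = 0.963), which was not called. In the Amp+Beclo samples gapdh was at 536, 879 and 1014 CPM, with a mean of 810 ± 247 (SD, n = 3), which overlapped both Control and Beclo. Against Control the log2 fold change was 0.37 (SE 0.35; adjusted p = 1.00). By mean level the order was thus Amp, Beclo, Amp+Beclo and Control, and the range of each group overlapped those of others. Amp replicate 1 (697 CPM) lay within the ranges of Control and Amp+Beclo and below all Beclo samples.

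**Figure D1:**
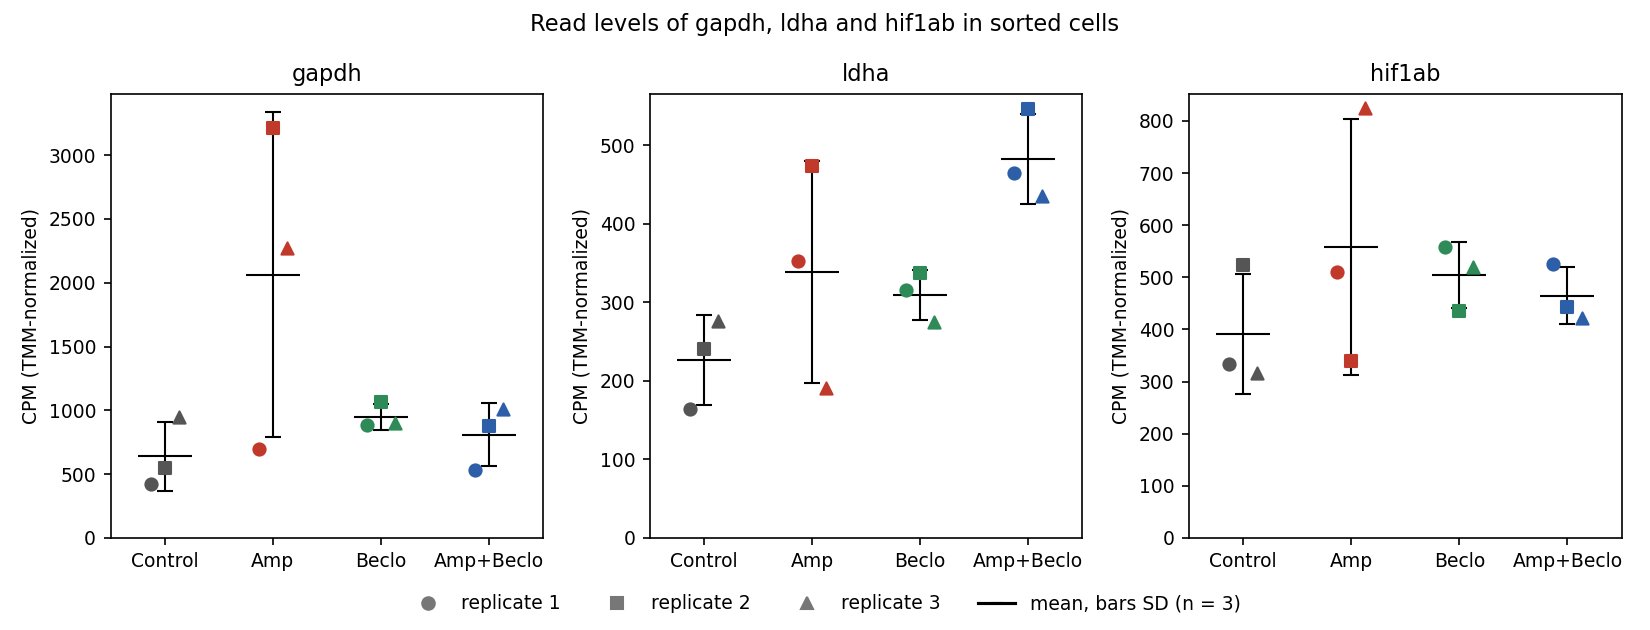
Level of gapdh, ldha and hif1ab in each of the 12 samples, in CPM (TMM-normalized) on axes that start at 0. Points are samples, shaped by replicate number, and lines and bars are the group mean and SD (n = 3). For gapdh, Amp replicates 2 and 3 (3217 and 2273 CPM) lie above the other 10 samples, and for ldha the Amp+Beclo samples (436 to 547 CPM) lie above all Control and Beclo samples.

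Amp+Beclo was set against Amp to ask whether beclomethasone changed the level after wounding. Gapdh was lower in Amp+Beclo in 3 of 3 pairs, at 0.768, 0.273 and 0.446 of the Amp sample, and 13% of all genes were lower in 3 of 3 pairs. The log2 fold change was -1.12 (SE 0.64; adjusted p = 0.568, edgeR), in a comparison where 0.299% of 21742 genes were called, and gapdh was not among them. The adjusted p ranged from 0.210 to 0.998 over the alternatives. The effect of amputation in beclomethasone-treated larvae, Amp+Beclo against Beclo, was -0.22 on the log2 scale (SE 0.25; adjusted p = 0.760), against 1.51 in vehicle-treated larvae. The difference between these effects, the interaction term, was -1.90 (SE 0.60; unadjusted p = 0.00623, adjusted p = 0.451) in a fit of the 12 samples. No gene of 21979 passed an adjusted p of 0.05 in the interaction (0%) with edgeR, although 2389 (10.9%) had an unadjusted p below 0.05, and DESeq2 called 5. By signed value the gapdh interaction was at the 1.11 percentile of all genes, among the most negative, and by absolute size at the 95.5 percentile, but a difference in its response to amputation did not pass the test.

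**Figure D2:**
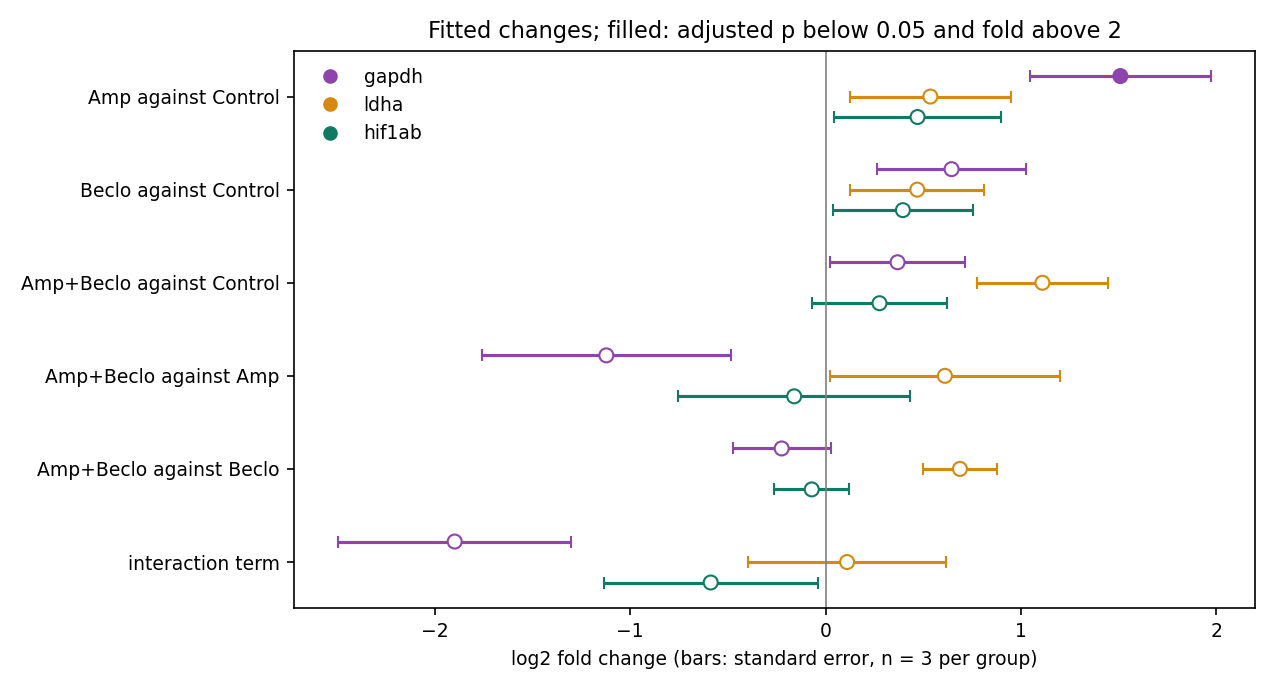
Fitted log2 fold changes of the 3 genes in the 5 comparisons and the interaction of amputation and beclomethasone, with standard errors (n = 3 per group). The filled point is gapdh in Amp against Control (1.51), the only one past both thresholds. Gapdh points to the left in Amp+Beclo against Amp (-1.12) and in the interaction (-1.90), and open points did not pass the test.

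Ldha showed another order of the groups. It was at 164, 241 and 276 CPM in Control (mean 227 ± 57.4, SD, n = 3) and at 353, 473 and 191 CPM in Amp (mean 339 ± 142, SD, n = 3). The Amp sample was above its Control in replicates 1 and 2, by 2.15-fold and 1.97-fold, and below it in replicate 3, at 0.692 of the Control level. The fitted difference of 0.54 on the log2 scale (SE 0.41; adjusted p = 0.491) was not called. Amp replicate 3 had thus the lowest ldha of its group and at the same time a high gapdh level. In Beclo ldha was at 316, 337 and 275 CPM (mean 309 ± 31.7, SD, n = 3), which overlapped Control by its lowest sample, and the log2 fold change was 0.47 (SE 0.34; adjusted p = 0.963).

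The Amp+Beclo samples held 465, 547 and 436 CPM of ldha, with a mean of 483 ± 57.5 (SD, n = 3). The lowest of these lay above the highest Control and the highest Beclo sample. Such a separation upwards was found for 5.95% of all genes against Control and for 5.61% against Beclo. The pairs differed by 2.84-fold, 2.27-fold and 1.58-fold from Control, with a log2 fold change of 1.11 (SE 0.34; unadjusted p = 0.00777, adjusted p = 0.321, edgeR), while 0.419% of 22202 genes were called. DESeq2 called it, with a log2 fold change of 1.11 and an adjusted p of 0.0448, and so did edgeR without replicate 2 (1.07, adjusted p = 0.0247). Against Beclo the ratios within pairs were 1.47, 1.62 and 1.59, close to each other, with a log2 fold change of 0.69 (SE 0.19; adjusted p = 0.528), where 1 of 21727 genes (0.0046%) was called. Against Amp ldha was higher in 3 of 3 pairs, as were 18.8% of all genes, and Amp replicate 2 (473 CPM) overlapped the Amp+Beclo range (log2 fold change 0.61, SE 0.59; adjusted p = 0.730). The interaction was 0.11 (SE 0.51; adjusted p = 0.931).

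Hif1ab was at 333, 523 and 316 CPM in Control, with a mean of 391 ± 115 (SD, n = 3). In Amp it was at 510, 340 and 825 CPM, the widest spread of the 4 groups, with a mean of 558 ± 246 (SD, n = 3). Amp replicate 2, which had the highest gapdh level of the 12 samples, had the lowest hif1ab level of the Amp group. The ratios to the paired Control were 1.53, 0.651 and 2.61, so the pairs did not share a direction, and the log2 fold change was 0.47 (SE 0.43; adjusted p = 0.570).

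In Beclo hif1ab was at 558, 436 and 520 CPM and in Amp+Beclo at 526, 444 and 423 CPM, with means of 505 ± 62.7 and 464 ± 54.8 (SD, n = 3 each). These groups overlapped each other and Control. Their log2 fold changes against Control were 0.40 (SE 0.36; adjusted p = 0.963) and 0.28 (SE 0.34; adjusted p = 1.00). Amp+Beclo differed from Beclo by -0.07 (SE 0.19), the smallest change of any of the 3 genes, and from Amp by -0.16 (SE 0.60), which turned to 0.20 without replicate 3. The interaction was -0.59 (SE 0.55; adjusted p = 0.614).

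The other enzymes of glycolysis were described from a list of 31 identifiers, gapdh included, from the hexokinases to the pyruvate kinases. All were tested in each comparison. Between Amp and Control 8 were called higher and none lower, against 2.46% of all genes called in either direction, and 27 of the 31 had a positive log2 fold change with a median of 1.08. No other list member passed with edgeR, although 22 of the 31 had an unadjusted p below 0.05, against 18.2% of all genes, and 21 of these were higher. The called enzymes came from both parts of the pathway. In the first part they were HK2 (hexokinase, which phosphorylates glucose; log2 fold change 1.64), a GPI copy (glucose phosphate isomerase, ENSDARG00000103826; 1.35), a PFKP copy (phosphofructokinase, ENSDARG00000028000; 1.3), an ALDOA copy (aldolase, ENSDARG00000034470; 1.56) and an ALDOC copy (ENSDARG00000019702; 1.40). In the second part they were gapdh, PGAM2 (phosphoglycerate mutase of muscle; 1.27) and a PKM copy (pyruvate kinase, ENSDARG00000099860; 1.41). Their adjusted p ranged from 0.00879 for HK2 to 0.0484 for gapdh. DESeq2 called 16 of the 31 higher, against 528 of all 22107 genes. Without the block, with all 12 samples in one fit, without replicate 2 or without replicate 3 none was called with edgeR, while 27, 27, 27 and 26 of the fold changes were positive. Without replicate 1, 16 were called, against 1508 of all 20322 genes tested.

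HK2 illustrates a separation that gapdh did not have. It was at 97.4, 214 and 72.1 CPM in Control and at 270, 368 and 462 CPM in Amp, with no overlap. In Beclo it was at 258, 210 and 221 CPM and in Amp+Beclo at 377, 375 and 314 CPM, so the Amp+Beclo samples lay within the range of Amp. The log2 fold change of HK2 in Amp+Beclo against Control was 1.63 (SE 0.37; adjusted p = 0.129) and in Amp+Beclo against Amp 0.00 (SE 0.58). Upwards separation from Control was found for 5 of the 31 enzymes in Amp, against 4.04% of all genes, and for 9 in Amp+Beclo, against 5.95%. The called GPI, ALDOA, PGAM2 and PKM genes overlapped as gapdh did, each through Control replicate 3. That sample was at 74.4, 533, 101 and 341 CPM, and the lowest Amp samples at 49.2, 382, 47.8 and 172 CPM.

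The paralog GAPDHS (ENSDARG00000039914), which encodes a second gapdh protein, was at 1516, 2059 and 1158 CPM in Control and at 2023, 7429 and 3496 CPM in Amp. As for gapdh, Amp replicate 2 was the highest of the 12 samples. Its log2 fold change of 1.3 (SE 0.48; adjusted p = 0.115) was not called. The files record no reads aligned to several places, so how reads shared by gapdh and its paralogs or pseudogenes were assigned could not be traced, and the values of paralogs are uncertain. The other enzymes with the highest levels of the list, another GPI copy (ENSDARG00000012987), another ALDOA copy (ENSDARG00000011665), ENO3 (an enolase) and another PKM copy (ENSDARG00000099730), had log2 fold changes of 1.45, 1.05, 0.98 and 0.81 in Amp, with adjusted p from 0.0516 to 0.311, and were not called. No glycolysis enzyme was called with edgeR in Beclo or Amp+Beclo against Control, in Amp+Beclo against Amp or Beclo, or in the interaction. At an unadjusted p below 0.05 there were 6 of the 31 in Beclo against Control (5.24% of all genes), 8 in Amp+Beclo against Control (7.22%), 3 in Amp+Beclo against Amp (9.23%), 3 in Amp+Beclo against Beclo (9.28%) and 14 in the interaction (10.9%). DESeq2 called 2 in Beclo (241 of all 22127 genes) and 2 in Amp+Beclo (370 of all 22202 genes) against Control, and 0 in the others. Their median log2 fold change was 0.55 in Beclo and 0.50 in Amp+Beclo against Control, and -0.18 in Amp+Beclo against Amp, where the median of all genes was 0.14. In the interaction 24 of the 31 values were negative, with a median of -1.17, against 0.12 for all genes. Lists of cell type markers were mostly negative there too. The values were 15 of 17 for skeletal muscle (median -1.03), 11 of 11 for epidermis (-0.81) and 18 of 22 for macrophages (-0.43). Of 7 endothelial markers 3 were negative, with a median of 0.61.

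**Figure D3:**
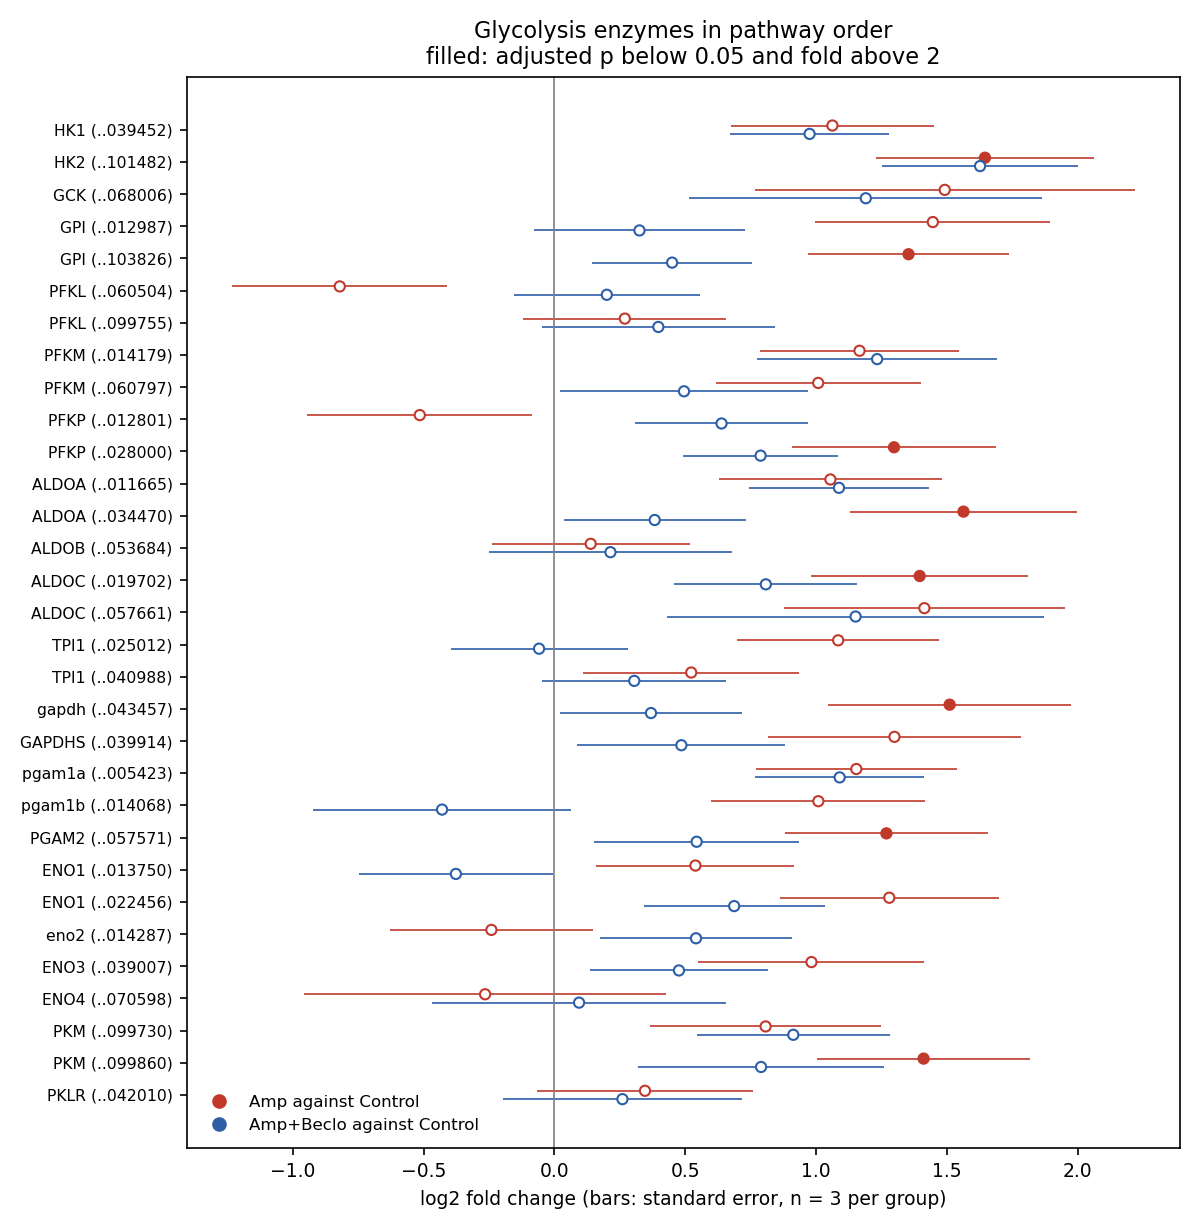
Fitted log2 fold changes of the 31 glycolysis enzymes, in pathway order from hexokinases to pyruvate kinases, in Amp and in Amp+Beclo against Control, with standard errors (n = 3 per group). Names are those of the gene table, with the last digits of the identifier. The 8 filled red points are the enzymes called after amputation, and no blue point is filled. Both comparisons share the Control samples.

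The lactate group of 9 identifiers, lactate dehydrogenases and monocarboxylate transporters, had no call in any comparison with edgeR, with 3 of 9 at an unadjusted p below 0.05 in Amp against Control, against 18.2% of all genes, where DESeq2 called 1, against 816 of all 22107 genes. LDHB (ENSDARG00000019644), the B subunit of lactate dehydrogenase, was at 608, 585 and 657 CPM in Control and at 662, 1345 and 1501 CPM in Amp. All Amp samples lay above all Control samples, the lowest of them narrowly, and 4.04% of all genes were separated upwards in this comparison. The log2 fold change of LDHB was 0.85 (SE 0.44, adjusted p = 0.280, edgeR). Its Amp+Beclo samples, at 808, 693 and 575 CPM, overlapped Control. SLC16A3 (ENSDARG00000045051), a monocarboxylate transporter that exports lactate in mammals, differed from Control by 0.99 on the log2 scale (SE 0.37; adjusted p = 0.115) in Amp and by 0.90 (SE 0.33; adjusted p = 0.516) in Amp+Beclo. The remaining genes with the highest levels of this group, ldhbb and the 2 SLC16A1 copies (ENSDARG00000016963 and ENSDARG00000068572), had log2 fold changes of 0.89, 0.10 and -0.78 in Amp, none of them called.

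Among 19 glucose transporters and regulators of glycolytic flux, 18 were tested and 1 was called. This was a PDK2 copy (ENSDARG00000059054), a pyruvate dehydrogenase kinase, which in mammals restrains the entry of pyruvate into the tricarboxylic acid cycle. It was at 34.5, 53.4 and 27.0 CPM in Control and at 189, 166 and 228 CPM in Beclo. The log2 fold change was 2.38 (SE 0.37; adjusted p = 0.0268, edgeR) in Beclo against Control, where 0.172% of 22127 genes were called. The call was lost without replicate 1 (2.33, adjusted p = 0.553) and was kept without the block. In Amp it was at 55.9, 86.3 and 19.7 CPM, and in Amp+Beclo at 184, 122 and 158 CPM (log2 fold change 2.05 against Control, SE 0.37; adjusted p = 0.0503). The Beclo and Amp+Beclo samples thus lay above all 6 vehicle samples. Against Control alone, 5.66% of all genes were separated upwards in Beclo and 5.95% in Amp+Beclo, and the share for all 12 samples was not counted.

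PDK4 (ENSDARG00000054848), another kinase of this family, and PFKFB4 (ENSDARG00000029075), which sets the level of an activator of phosphofructokinase, also stood higher in the beclomethasone-treated samples but were not called. The PDK4 means were 24.4, 15.5, 54.9 and 62.2 CPM in Control, Amp, Beclo and Amp+Beclo, and those of PFKFB4 were 138, 104, 362 and 286 CPM. PDK4 differed between Amp+Beclo and Amp by 2.07 on the log2 scale (SE 0.57; adjusted p = 0.0794), and PFKFB4 between Beclo and Control by 1.46 (SE 0.35; adjusted p = 0.205). The glucose transporter gene slc2a3b (ENSDARG00000037861) was at 14.3, 16.8 and 15.9 CPM in Control and at 29.4, 65.7 and 50.6 CPM in Amp+Beclo (log2 fold change 1.55, SE 0.32; adjusted p = 0.0906). PFKFB3 and the second PDK2 copy (ENSDARG00000020876) had log2 fold changes of -0.05 and -1.16 in Amp and of -0.58 and 0.45 in Beclo against Control, and neither was called. At an unadjusted p below 0.05, 6 of the 18 were higher in Amp+Beclo against Amp (9.23% of all genes) and 4 in Amp+Beclo against Control (7.22%). In Beclo against Control 3 were higher (5.24%), in Amp+Beclo against Beclo 2 (9.28%), and in Amp against Control 2 were lower (18.2%).

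Of 16 HIF subunits and oxygen-sensing regulators, hif1ab included, 15 were tested and none was called in any comparison with edgeR. In Amp against Control 3 of the 15 had an unadjusted p below 0.05, all lower, close to the 18.2% of all genes, and DESeq2 called none. At the same threshold 6 were higher in Amp+Beclo against Amp (9.23% of all genes) and 4 in Amp+Beclo against Control (7.22%). There were 2 in Beclo against Control (5.24%), 2 in Amp+Beclo against Beclo (9.28%) and 2 in the interaction (10.9%), all positive. In Beclo and Amp+Beclo against Control DESeq2 called 2 each, against 241 of all 22127 genes and 370 of all 22202 genes. Hif1al (ENSDARG00000100826), a gene related to the HIF-1 alpha genes, was at 432, 535 and 357 CPM in Control and at 495, 389 and 503 CPM in Amp. It was at 1532, 1283 and 1381 CPM in Beclo and at 1448, 996 and 1009 CPM in Amp+Beclo, so that all beclomethasone samples lay above all vehicle samples. How many of all genes did so was not counted. The log2 fold change of hif1al in Beclo against Control was 1.67 (SE 0.36, unadjusted p = 0.000572, adjusted p = 0.128, edgeR), and 5.66% of all genes were separated upwards in this comparison. The largest value of the list there was 2.27, in a gene outside the 6 with the highest levels. Hif1ab, in contrast, differed between these groups by 0.40 only, and the difference between the 2 genes was not tested. The other HIF genes with the highest levels, EPAS1 (ENSDARG00000008697, another HIF alpha subunit), the oxygen-sensing hydroxylases EGLN1 (ENSDARG00000004632) and EGLN2, and HIF1AN, a hydroxylase that inhibits HIF, had log2 fold changes of -0.46, 0.58, -0.26 and 0.56 in Amp, with adjusted p from 0.392 to 0.762.

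**Figure D4:**
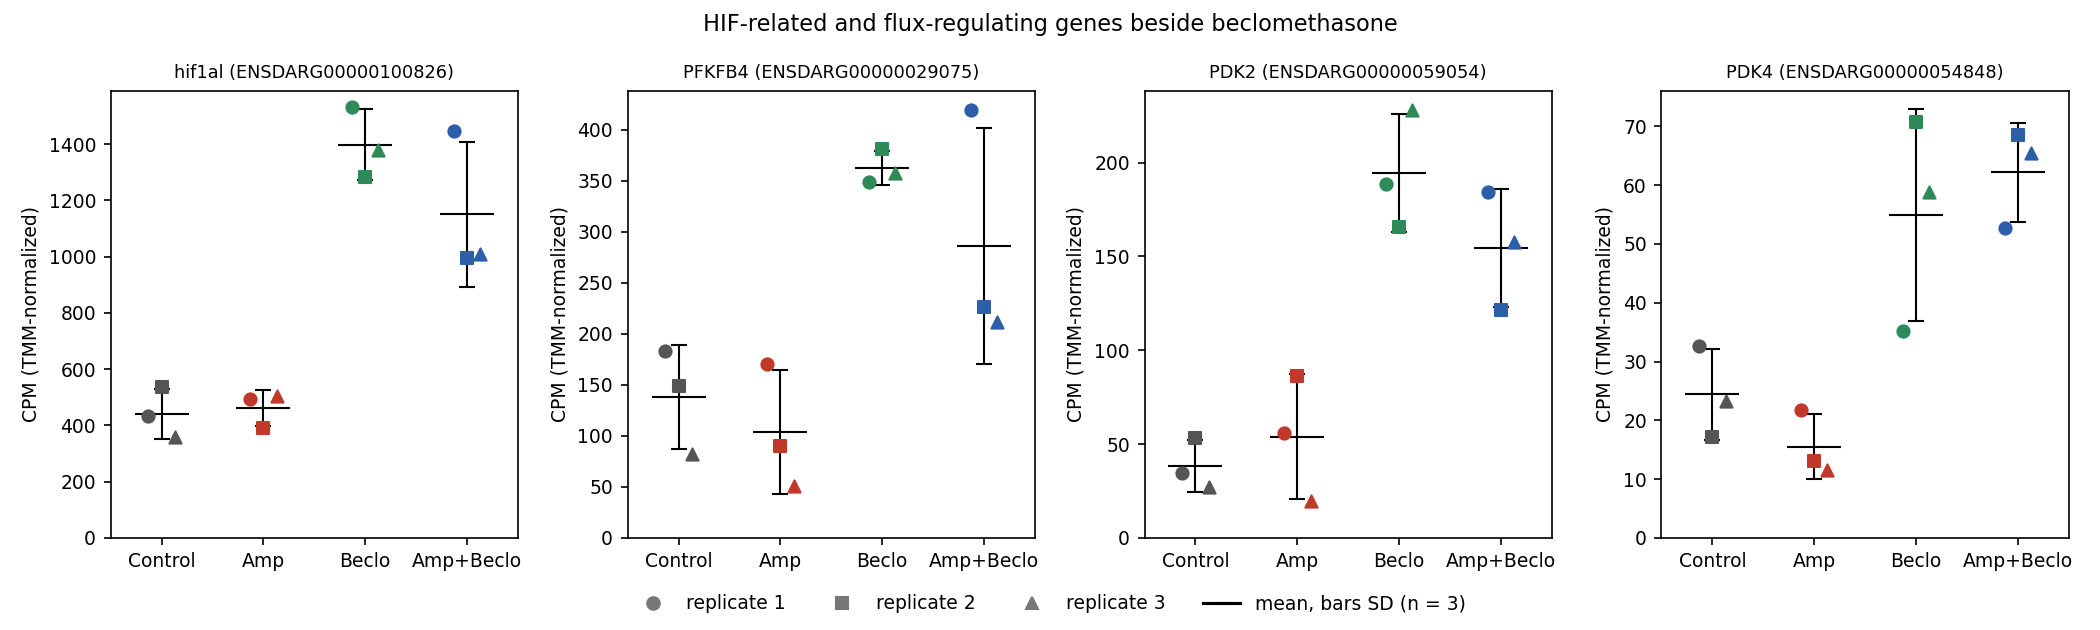
Levels of hif1al, PFKFB4, PDK2 and PDK4 in each sample, in CPM (TMM-normalized) on axes that start at 0, with group means and SD (n = 3). For each of the 4 genes the 6 beclomethasone-treated samples lie above the 6 vehicle samples, widely for hif1al (996 to 1532 against 357 to 535 CPM) and narrowly for PDK4 (lowest 35.2 against highest 32.6 CPM). The share of all genes separated in this way was not counted. Shown are the genes named from the flux and HIF lists that separated so, and the others named, such as hif1ab, PFKFB3 and EPAS1, overlapped. Only PDK2 in Beclo against Control was called with edgeR.

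Other genes known as HIF targets in mammals were described from 22 identifiers outside glycolysis. Between Amp and Control 21 were tested, of which 15 were positive, 7 had an unadjusted p below 0.05 (18.2% of all genes), and 2 were called higher and 1 lower (2.46% of all genes in either direction). These were ERO1A (ENSDARG00000015228), an oxidase of protein folding in the endoplasmic reticulum (log2 fold change 1.77, adjusted p = 0.00171), and P4HA2 (ENSDARG00000010085) and p4ha1a (ENSDARG00000033537), subunits of the collagen prolyl hydroxylase (1.44 and -1.43, adjusted p = 0.0151 and 0.0247). They were named after their values were seen. ERO1A was also called in Amp+Beclo against Control (2.87, adjusted p = 0.0317). In that comparison 0.419% of all genes were called. ERO1A was at 3.39, 15.0 and 7.01 CPM in Control and at 21.4, 45.9 and 14.4 CPM in Amp, which overlapped Control. In Beclo it was at 13.5, 44.9 and 27.0 CPM and in Amp+Beclo at 71.1, 61.5 and 34.4 CPM. All 3 calls between Amp and Control were lost without the block, without replicate 2 or without replicate 3, and the call in Amp+Beclo without the block (adjusted p = 0.167). In Amp the list had a median of 0.28 on the log2 scale, against -0.11 for all genes.

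The 3 genes did not follow each other over the 12 samples. On the log2 CPM scale Pearson's r was 0.20 between gapdh and ldha, 0.12 between gapdh and hif1ab and -0.18 between ldha and hif1ab, over 12 samples that share 4 groups and 3 replicate numbers. Among 10613 genes with a mean of at least 10 CPM, the most alike gapdh were the 2 copies listed as TNNI2 (ENSDARG00000029069 and ENSDARG00000005841), which encode troponin I of fast skeletal muscle, each with r = 0.98, and the unnamed ENSDARG00000103849 (r = 0.97). The first TNNI2 copy was at 617, 753 and 1849 CPM in Control, at 1377, 5176 and 4166 CPM in Amp, at 1482, 1524 and 1391 CPM in Beclo and at 830, 1357 and 1732 CPM in Amp+Beclo. Its highest samples, Amp replicates 2 and 3, were those of gapdh.

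The muscle markers of the list were followed beside gapdh over the 4 groups. The sum over the 17 muscle markers was 16540, 11259 and 51676 CPM in Control and 30904, 33135 and 102594 CPM in Amp, higher in 3 of 3 pairs, although Control replicate 3 lay above Amp replicates 1 and 2. It was 27448, 39457 and 36581 CPM in Beclo and 18135, 40538 and 56600 CPM in Amp+Beclo, so that the median sum of Amp+Beclo was above that of Amp, unlike for gapdh. Gene by gene, however, 15 of the 17 were negative in Amp+Beclo against Amp, as gapdh was. Their median log2 fold change there was -0.35, against 0.14 for all genes, and none was called. In the interaction 15 of the 17 were negative as well, with a median of -1.03, against 0.12 for all genes, and none was called. All 17 had a positive log2 fold change in Amp, with a median of 1.08, and 12 had an unadjusted p below 0.05, against 18.2% of all genes. With edgeR 1 was called, ckma (muscle creatine kinase, 1.68, adjusted p = 0.0369), against 2.46% of all genes. DESeq2 called 9, against 816 of all 22107 genes. The ckma call was lost without the block (adjusted p = 0.853), with at least 10 reads in every sample (0.0629), with all 12 samples in one fit (0.382) and without replicate 2 (0.826) or replicate 3 (0.656). None of the 17 was at 0 in any library. The epidermis markers were also all positive in Amp (11 of 11, median 0.62), and none was called with edgeR. Of these 11, 4 had an unadjusted p below 0.05, all higher, against 18.2% of all genes. The macrophage markers were split, 11 positive and 11 negative, with a median of 0.05. Of the 22 macrophage markers 2 were called in Amp, against 2.46% of all genes. These were csf1rb (a receptor of macrophage colony-stimulating factor), lower (-2.07, adjusted p = 0.000112), and an MPEG1 copy (ENSDARG00000043093), higher (1.36, adjusted p = 0.0234). Of the 8 identifiers of the neutrophil list 1 was called, mmp13a, a metalloproteinase, which was higher (1.31, adjusted p = 0.0327). These 3 calls were lost without the block (adjusted p = 0.853), with all 12 samples in one fit (0.382) and without replicate 2 or replicate 3, and that of mmp13a also without replicate 1 (0.115). The neutrophil list also held mmp9, which the paper counts among genes of pro-inflammatory macrophages, and the cell type behind the mmp13a call was not tested. The part of cells other than macrophages in the gapdh and glycolysis values was not tested either.

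**Figure D5:**
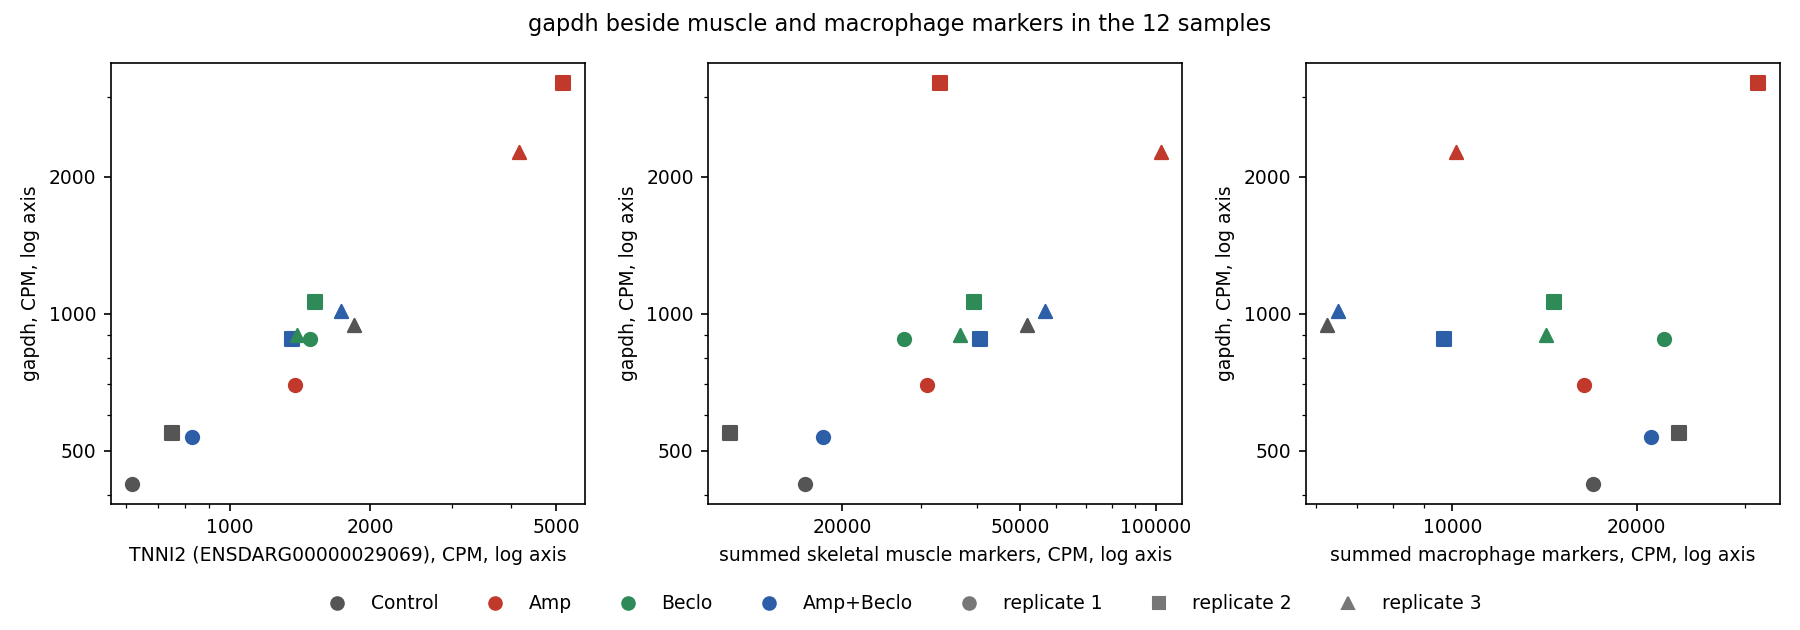
Gapdh against the fast muscle troponin I gene TNNI2 (ENSDARG00000029069) and against the summed skeletal muscle and macrophage markers in the 12 samples, all in CPM on log axes. Colours are groups and shapes replicate numbers. Gapdh lies close to a line with TNNI2 (r = 0.98, n = 12 samples in 4 groups), and the Amp sample with the highest gapdh (3217 CPM) does not have the highest summed muscle markers (33135 CPM, against 102594 CPM in replicate 3).

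The genes most alike ldha were others. They were PYGB (r = 0.88), a glycogen phosphorylase that releases glucose units from glycogen, YME1L1 (r = 0.88), a protease of the mitochondrial inner membrane, and ERO1A (r = 0.85). PYGB was at 81.6, 126 and 67.0 CPM in Control, at 192, 378 and 103 CPM in Amp and at 231, 379 and 253 CPM in Amp+Beclo, so that, as for ldha, Amp replicate 3 was the lowest of its group. Hif1ab was most alike nolc1 (r = 0.96), which encodes a nucleolar phosphoprotein, srrm1 (r = 0.94), which encodes a protein of the splicing machinery, and PCSK7 (r = 0.93), which encodes a proprotein convertase. In nolc1 the Amp samples were at 304, 196 and 470 CPM, with replicate 3 the highest and replicate 2 the lowest, as in hif1ab. None of the 3 was a glycolysis enzyme or a HIF regulator of the lists. These correlations are descriptions over 12 samples that share groups and libraries.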

How the data were processed

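RNA of the sorted cells was amplified (SMART-seq V4) and sequenced with reads of 50 nucleotides. The authors mapped them to GRCz10 (annotation version 80) with TopHat2 2.1.0, used DESeq 1.26.0, and deposited raw counts of reads per Ensembl gene for each sample. The counting program and strand setting are not given in the sources used here. Reads outside genes (4.72 to 12.6%) and ambiguous reads (1.64 to 2.46%) were left out. Without molecular identifiers, reads are not independent molecules.

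Samples were grouped by their labels. Each pair of groups was fitted over all genes with at least 30 reads in the 6 samples (60 in 12 for the interaction) with edgeR 4.0.16 in R 4.3.3 (TMM, quasi-likelihood test, replicate number as a block, Benjamini-Hochberg). SEs come from each fold change and its F value. The block follows the paired analysis of the study, whose groups came from 3 replicate experiments. Deviations from group means correlated over genes at 0.47 to 0.66 between same-numbered Amp and Control samples, but at -0.38 to 0.47 in the other pairs of groups. There, differently numbered samples reached 0.53 (Control replicate 2 with Amp+Beclo replicate 1). The block was thus clearly borne out only for Amp and Control. The p-values set a difference between groups against the variation left between these samples after the replicate block. In simulated data for Amp against Control (21832 genes), 158 of 198 genes changed 4-fold were recovered, with 2 false calls. The simulation gave all genes the same spread between samples and let paired samples share replicate effects in full. Changes went randomly up or down, and none was smaller than 4-fold. It therefore checks the fitting steps and does not show how reliable calls are in the real samples. Alternatives were no block, RLE size factors, other count filters, DESeq2 1.42.0, all 12 samples in one fit, no fold cutoff and leaving out each replicate number.

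The genes and lists were chosen with earlier results of these data known. Named were the 3 genes followed, the genes of the glycolysis, lactate, flux and HIF lists that were called in any comparison, the 6 highest genes of each of these lists, and the 3 genes most correlated with each gene (log2 CPM, prior count 2). A gene table named 26121 of the 31962 identifiers, often by the human symbol. Called genes of the other lists were named after their values were seen. Unmatched list genes, pgk1 among them, were not analysed here.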

Additional observations from a re-analysis of the deposited data

How the results depend on the processing

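Of the values for gapdh, ldha and hif1ab under the alternatives, 163 kept their direction and their side of the threshold. Of the rest, 3 turned direction, 2 became calls and 6 lost the call. Only gapdh in Amp against Control was called at first, so keeping the side mostly means that a value stayed uncalled. With no fold cutoff the same fold changes were used, so their direction could not turn. The gapdh call in Amp against Control was the main exception, and its log2 fold change was 1.71 with no replicate block (adjusted p = 0.853), 1.57 with RLE (0.0534), 1.48 with at least 10 reads in every sample (0.0581) and 1.58 with all 12 samples in one fit (0.382), and 1.05 to 1.99 when a replicate number was left out. With DESeq2 (0.00488) and with no filter (0.0358) it was called. For ldha in Amp+Beclo against Control DESeq2 gave 1.11 and called it, and leaving out a replicate gave 0.94 to 1.32. Directions turned, none of them called, for hif1ab in Amp+Beclo against Amp (-0.43 to 0.20, positive without replicate 3), gapdh in Amp+Beclo against Beclo (-0.48 to 0.016, positive without replicate 1) and the ldha interaction (-0.46 to 0.51, negative without replicate 3). The cause was not tested. With no replicate block the number of genes called was 0 in Amp against Control (543 with it), 29 in Amp+Beclo against Control (93), 2 in Amp+Beclo against Amp (65) and 0 in Amp+Beclo against Beclo (1). RLE gave 60 in Beclo against Control (38), 141 in Amp+Beclo against Control and 0 in Amp+Beclo against Beclo. No filter gave 138, 261 and 18 in these comparisons. At least 10 reads in every sample gave 116 in Beclo against Control, 21 in Amp+Beclo against Amp and 14 in Amp+Beclo against Beclo. DESeq2 gave 816 in Amp against Control, 241 in Beclo against Control, 370 in Amp+Beclo against Control, 107 in Amp+Beclo against Beclo and 5 in the interaction. All 12 samples in one fit gave 7 in Amp against Control and 25 in Amp+Beclo against Amp. Leaving out a replicate number gave 2 to 1508 in Amp against Control, 3 to 140 in Beclo against Control, 35 to 664 in Amp+Beclo against Control, 1 to 13 in Amp+Beclo against Amp, 0 to 38 in Amp+Beclo against Beclo and 0 in the interaction. With 3 samples per group, differences as large as those of ldha in Amp did not pass the test.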

Other observations

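The tricarboxylic acid cycle, into which pyruvate from glycolysis enters, was described from 21 identifiers, of which 20 were tested. None was called in any comparison with edgeR. In Amp against Control 17 of the 20 had a positive log2 fold change, with a median of 0.79, and 12 had an unadjusted p below 0.05 (18.2% of all genes), 11 of them higher, while DESeq2 called 4 (816 of all 22107 genes). In the same comparison 17 of 17 skeletal muscle markers were positive, with a median of 1.08, and their part in these values was not tested. The summed level of the 21 cycle identifiers was 3154, 3740 and 3743 CPM in Control and 3921, 8957 and 8248 CPM in Amp, and it was 4214, 4558 and 4121 CPM in Amp+Beclo. The Amp samples lay above all Control samples, the lowest of them narrowly (3921 against 3743 CPM). Of single genes, 4.04% were separated upwards in this comparison, and the share for sums over lists was not counted. Amp replicates 2 and 3 were the highest of the 12 samples, as they were for gapdh. In Amp+Beclo against Amp 17 of the 20 enzymes were negative, with a median of -0.56, against 0.14 for all genes, and none was called.

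DDIT4 (ENSDARG00000037618), an inhibitor of mTOR signalling that is induced by hypoxia and by glucocorticoids in mammals, was called in Amp+Beclo against Control (log2 fold change 3.42, SE 0.57; adjusted p = 0.0341, edgeR) and against Amp (3.51, SE 0.85; adjusted p = 0.0217). In these comparisons 0.419% and 0.299% of all genes were called. DDIT4 was not called with edgeR in Beclo against Control, although its mean in Beclo was close to that in Amp+Beclo. Its mean level was low, at 0.349 CPM in Control, 0.465 CPM in Amp, 3.74 CPM in Beclo and 3.94 CPM in Amp+Beclo. It was named after its values were seen. Without the replicate block neither comparison was called (adjusted p = 0.110 and 0.465), and the call against Amp was also lost without replicate 1 (0.182) or replicate 2 (0.997).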
